A study of Homo sapiens with 6 samples.

Results

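A peak of GAPDH-bound RNA was taken as a multi-gene peak where the deposited annotation gave 2 or more different gene identifiers to 1 chromosome, start and end. Such peaks made up 403 of the 1316 peaks (30.6%) of the 3 lists, namely 96 of 337 in galactose, 125 of 484 in low and 182 of 495 in normal glucose. MOLM-13, a human acute myeloid leukaemia cell line, had been kept in 1 of 3 media (galactose, low glucose, normal glucose), and no other treatment or genetic change is given for any group. RNA bound to GAPDH, an enzyme of glycolysis that also binds RNA, was recovered by crosslinking and immunoprecipitation and sequenced (CLIP-seq) in 6 samples, 2 per medium. For each medium the authors joined both samples into 1 list of positions and gene names, without strand, read counts or scores, so the depth is unknown and no spread between samples can be given. All tests below compare lists, not conditions, and intervals are exact 95% binomial intervals that cover counting error over peaks only. The cell line cannot be checked against its markers from positions of peaks.

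Human genes overlap in several ways. Small nucleolar RNAs (snoRNAs) lie within introns of host genes and are trimmed out of the spliced intron, while genes and many pseudogene copies of 5S rRNA, 7SK and U6 RNA lie scattered over the genome, some of them within longer genes. Other pairs are transcribed from opposite strands, start from a shared promoter region, or are joined by readthrough transcripts, and processed pseudogenes are copies of an mRNA that came to lie within another gene. A peak in such a place is given to every gene that spans it, and without strand the list does not say which RNA was crosslinked.

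The peaks shown here are those in which a small RNA lies within or beside a longer gene and 2 others in which the place of the peak tells more than the gene names. Each line is the whole peak (hg38, 5′ to 3′) on the strand of the feature in capitals, which is the part of the small RNA inside the peak in the first 4 lines. In a peak of 101 nt the base in the middle, the 51st, was taken as the called crosslink site. The lists hold no site positions, so this is a reading from the width and from the paper's extension of solitary sites.

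RPL13A and SNORD33, chr19:49490649-49490749, plus strand, normal glucose: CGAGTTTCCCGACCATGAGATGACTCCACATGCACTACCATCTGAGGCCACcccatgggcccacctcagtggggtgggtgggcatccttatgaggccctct
RPS2 and SNORA64, chr16:1962922-1963022, minus strand, all 3 lists: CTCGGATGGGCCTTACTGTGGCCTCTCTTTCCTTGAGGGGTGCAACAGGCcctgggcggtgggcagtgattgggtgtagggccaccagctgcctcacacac
PTCD3 and SNORD94, chr2:86135957-86136057, plus strand, galactose: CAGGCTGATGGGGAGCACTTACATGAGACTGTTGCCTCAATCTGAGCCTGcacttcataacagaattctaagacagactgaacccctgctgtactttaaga
RNU6-4P and SOX2-OT, chr3:181231794-181231894, plus strand, all 3 lists: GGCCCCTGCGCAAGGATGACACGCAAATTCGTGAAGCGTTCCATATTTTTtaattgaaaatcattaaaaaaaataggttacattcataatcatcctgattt
GAPDHP61 and ZNF609, chr15:64529266-64529366, minus strand, normal glucose: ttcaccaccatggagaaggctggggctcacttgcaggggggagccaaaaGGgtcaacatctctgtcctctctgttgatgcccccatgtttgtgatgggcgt
FMC1 and LUC7L2, chr7:139340647-139340826, plus strand, all 3 lists: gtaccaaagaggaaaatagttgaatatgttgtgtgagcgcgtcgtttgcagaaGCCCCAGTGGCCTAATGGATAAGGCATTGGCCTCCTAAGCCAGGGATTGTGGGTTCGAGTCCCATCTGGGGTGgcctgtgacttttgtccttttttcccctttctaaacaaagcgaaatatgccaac

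In these 4 small RNA peaks the capitals end at or next to the middle of the peak, so that the called site lay at the 3′ end of the small RNA. For the GAPDHP61 line the 2 capitals mark the base before the called site and the site itself, and for the FMC1 line they mark the tRNA gene TRR-CCT4-1.

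The share of multi-gene peaks was 28.5% (23.7 to 33.6) in galactose, 25.8% (22.0 to 30) in low and 36.8% (32.5 to 41.2) in normal glucose. Normal glucose exceeded low glucose (odds ratio of low over normal 0.599, adjusted p = 0.000769) and galactose (odds ratio of galactose over normal 0.685, adjusted p = 0.0203; Fisher's exact test, two-sided, Benjamini-Hochberg over 3 pairs). Galactose against low glucose did not pass (odds ratio 1.14, adjusted p = 0.424, same exact test). Both differences from normal glucose no longer passed when pseudogenes were not counted as genes (galactose adjusted p = 0.874, low glucose 0.487, Fisher's exact test) or when small RNA genes were not counted (adjusted p = 0.195 in each, same exact test). The pseudogenes left out there included rRNA pseudogenes, which belong to the small RNA class below, and so were not those of the pseudogene class alone. In the genome, 12.8% of all positions inside a GENCODE gene lay inside 2 or more genes. Of all exonic positions, 4.37% lay in exons of 2 or more genes. These are shares of single bases, whereas a peak spans many bases and any of them can touch another gene. The shares of peaks above are therefore not on the same scale. By the middle base alone, 68 of 337 peaks in galactose lay in 2 or more genes. The counts were 100 of 484 in low and 169 of 495 in normal glucose. No test was made against the genome.

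Most multi-gene peaks named a pair of genes, 83 in galactose, 112 in low and 161 in normal glucose. There were 10, 12 and 15 peaks with 3 genes and 3, 1 and 6 peaks with 4 genes. Because each gene takes a row, multi-gene peaks supplied 208 of 449 rows of the galactose list (46.3%), 264 of 623 of the low glucose list (42.4%) and 391 of 704 of the normal glucose list (55.5%). The lists do not say which gene of such a peak was bound. A gene list drawn from these rows would hold many genes named by multi-gene peaks alone. Such genes were 163 of 367 in galactose (44.4%, 39.3 to 49.7), 216 of 512 (42.2%) in low and 297 of 533 in normal glucose (55.7%). Among protein coding genes the shares were 33.2% (73 of 220), 29.4% (91 of 309) and 46.0% (127 of 276). For 23, 33 and 51 of these coding genes every peak in the list lay over a small RNA gene as well.

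Each multi-gene peak was put in 1 class, in a set order. Small RNA with another gene held 54 peaks in galactose, 65 in low and 105 in normal glucose, 224 in all and the largest class in each list. Opposite strands without a small RNA, pseudogene, readthrough or shared start (antisense) followed with 16, 33 and 31, then readthrough with 13, 9 and 12 and shared start, with 5′ ends within 1000 nt, with 9, 10 and 8. Pseudogene with another gene stood at 1, 2 and 22 peaks, and other pairs on the same strand at 3, 6 and 4. Every multi-gene peak fell into one of these classes. Genes of both strands were named in 177 of the 403 peaks (43.9%).

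**Figure D1:**
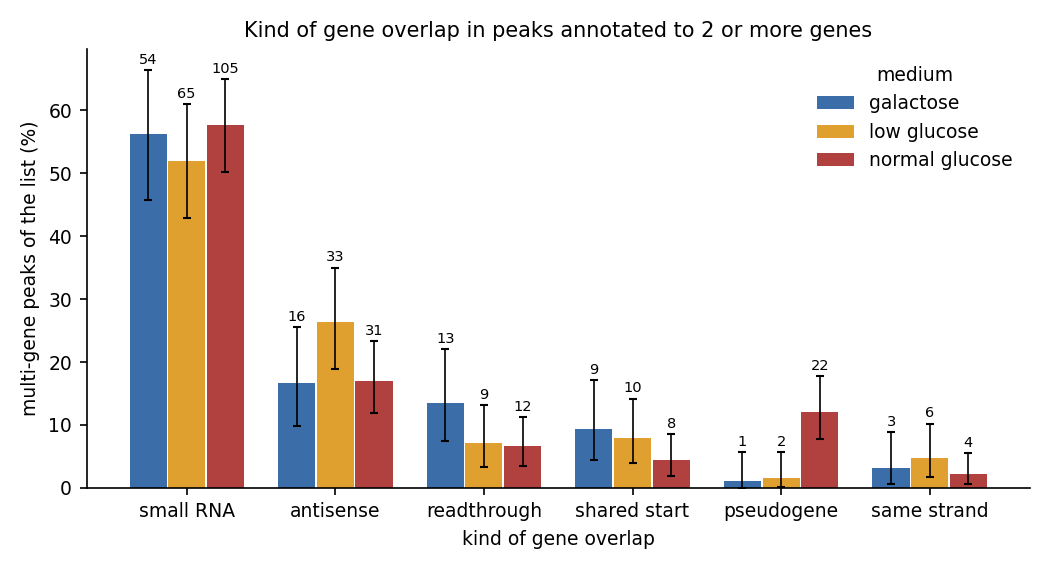
Share (%) of the multi-gene peaks of each list that fell in each class of gene overlap, with exact 95% binomial intervals as error bars (counting error only) and the number of peaks above each bar. Small RNA peaks led in all 3 lists (54, 65 and 105 peaks), and pseudogene peaks stood at 1 and 2 in galactose and low glucose against 22 in normal glucose.

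Of 18 comparisons of a class between a pair of lists, those of the pseudogene class with normal glucose passed. Pseudogene peaks made up 22 of 182 multi-gene peaks in normal glucose against 1 of 96 in galactose (odds ratio of galactose over normal 0.0766, adjusted p = 0.00809) and 2 of 125 in low glucose (odds ratio of low over normal 0.118, adjusted p = 0.00761; Fisher's exact test). Neither passed with strand and shared start put before pseudogenes in the order of classes (0 of 96 and 0 of 125 against 8 of 182, adjusted p = 0.485 and 0.416, same exact test). In the main order the shares were 12.1% (7.73 to 17.7) in normal glucose, 1.04% (0.0264 to 5.67) in galactose and 1.60% (0.194 to 5.66) in low glucose. No other class passed, and the small RNA share was 54 of 96, 65 of 125 and 105 of 182 (adjusted p = 0.960, 1.00 and 0.632, same exact test). Antisense peaks were 33 of 125 in low and 31 of 182 in normal glucose, with an odds ratio of 1.75 and an adjusted p of 0.342 by the exact test. The odds ratio for readthrough, galactose over normal, was 2.22 (adjusted p = 0.342, same exact test).

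SnoRNAs and the related scaRNAs of Cajal bodies, which guide methylation and pseudouridylation of other RNAs, were the small RNA of 90 peaks, 24 in galactose, 31 in low and 35 in normal glucose, at 52 loci. The small RNA lay on the same strand as the partner gene in 90 of 90. Box H/ACA snoRNAs accounted for 14, 17 and 15 peaks, box C/D snoRNAs for 6, 8 and 18 and scaRNAs for 3, 4 and 2. The partner was a ribosomal protein gene in 35 of the 90 peaks (14 genes), a non-coding host gene of the SNHG kind in 17 (7 genes) and a translation factor gene in 7. Over all small RNA classes the partners were ribosomal protein genes in 11, 15 and 18 peaks. Of the 170 peaks in ribosomal protein genes of all lists, 56 (32.9%) were multi-gene peaks, which is near the 30.6% of all peaks. Of the 25 peaks in non-coding snoRNA hosts, 19 (76.0%) were, and 8 of the 12 hosts were listed by way of such peaks alone.

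RPL13A, a ribosomal protein gene that the study followed up, had 9 multi-gene peaks, each overlapping a box C/D snoRNA of its introns by at least 7 nt. The paper names the 5′UTR of RPL13A as its target site. SNORD33 was named in 1 peak in galactose, 2 in low and 2 in normal glucose, SNORD32A in 1 peak of each list and SNORD35A in 1 peak of normal glucose. The SNORD32A peak had the same ends in all 3 lists (chr19:49489994-49490095), and its middle lay 4 nt before the last base of the snoRNA. The second SNORD33 peak of normal glucose (chr19:49490649-49490749, first sequence above) had its middle on the last base of SNORD33. By contrast, 1 SNORD33 peak of each list overlapped the snoRNA by 7 nt, with its middle before it in coding sequence of RPL13A. The distance was 44 nt in galactose and normal glucose (chr19:49490521-49490621) and 56 nt in low glucose (chr19:49490498-49490621). The only SNORD33 peak of galactose was of this kind. Thus the same gene pair stood for a peak at the snoRNA and for a peak in the mRNA.

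EIF4A1, which encodes an RNA helicase of translation initiation, accounted for 6 of the 10 peaks annotated to 4 genes, each time with the readthrough gene SENP3-EIF4A1, a further gene without a symbol and a snoRNA. SNORA67 was named in 2 peaks of galactose and 1 of low glucose, SNORA48 in 1 peak of galactose and 1 of normal glucose, and SNORD10 in 1 peak of normal glucose (chr17:7576760-7577004). The wide low glucose peak over SNORA67 (chr17:7577945-7578142) overlapped both narrower peaks of galactose. A further 4-gene peak of normal glucose joined MATR3, SIL1 and SNHG4 with SNORA74D.

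Among snoRNA peaks found in a single medium, SNORA11B in an intron of DGLUCY had 2 peaks in galactose, and SNORA73A, which lies within SNHG3 and RCC1, had 2 in normal glucose. SNORA55 with PABPC4 and SNORA80E with KHDC4 had 1 peak each in low glucose. At the telomerase RNA, TERC and a shorter model of the same RNA shared 1 peak in galactose. These single peaks carry no measure of abundance, and a place missing from a list may have lain under the threshold of the authors' calling.

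The other 128 small RNA peaks with a partner gene were split by the strand of the chosen partner. The small RNA lay on that strand in 79 and on the opposite strand in 49. With the 6 peaks over small RNA genes alone included, U6 and other spliceosomal RNAs and their copies had 9, 13 and 13 peaks in galactose, low and normal glucose at 14 loci. 7SL, the RNA of the signal recognition particle, had 8, 3 and 9, and 7SK, which holds back the elongation factor P-TEFb, had 2, 4 and 15. 5S rRNA genes and pseudogenes had 6, 10 and 27.

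RN7SL1, one of the expressed 7SL genes, lies opposite to RPS29, a ribosomal protein gene, and the pair had 2, 2 and 3 peaks. All 7 peaks lay in introns of RPS29. In each list 1 of them lay at the 3′ end of the 7SL RNA, with its middle 2 nt past the last base. RN7SL2, with a lncRNA gene on the same strand, had 3, 1 and 3 peaks, and the peak whose middle lay 2 nt before its first base (chr14:49862801-49862901) had the same ends in all 3 lists.

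The U6 copy RNU6-4P in an intron of SOX2-OT, a lncRNA gene, had 2 peaks with the same ends in every list, 1 at each end of the U6 sequence (that at the 3′ end is printed above). The expressed 7SK gene is held by the annotation under 2 identifiers and so entered as a multi-gene peak, with 1, 2 and 3 peaks. The peak 2 nt before its first base (chr6:52995568-52995668) was in all 3 lists, and that near its last base in low and normal glucose. The 7SK pseudogene RN7SKP9 in an intron of UBAC2 had 1, 1 and 2 peaks, RN7SKP255 had 2 in normal glucose alone, and so did RPPH1, the RNA of RNase P.

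In single-site peaks of 101 nt the middle could be set against the ends of the small RNA. Of 115 such peaks, 22 had the middle within 5 nt of the 5′ end and 33 within 5 nt of the 3′ end, together 55 (47.8%, 38.4 to 57.3). These counts were 17 of 33 in galactose, 16 of 27 in low and 22 of 55 in normal glucose. The most frequent places were sharp: 20 middles lay exactly 2 nt before the first base and 16 exactly 1 nt after the last base. Both places occurred on either strand, with 16 and 11 on plus and 4 and 5 on minus. The counts here and in the next paragraph pool the 3 lists, so a place found in several lists was counted in each. On minus, for instance, the RN7SL2 peak before its first base and the SNORA64 peak were each counted in all 3 lists. The interval does not allow for such repeats.

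By class of small RNA, in box C/D snoRNAs, 8 of 11 middles lay near the 3′ end and 0 near the 5′ end, and in box H/ACA snoRNAs 8 of 21 lay near the 3′ end and 7 near the 5′ end. Spliceosomal RNAs had 6 and 5 of 21, and 7SK had 2 and 4 of 14. Where the small RNA lay on the partner's strand, 42 of 84 middles were near an end, against 4 of 20 on the opposite strand. No snoRNA or scaRNA peak was in the opposite-strand group, so strand and class of small RNA cannot be told apart in these counts. These windows were chosen after positions had been seen, and no test was made of them.

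**Figure D2:**
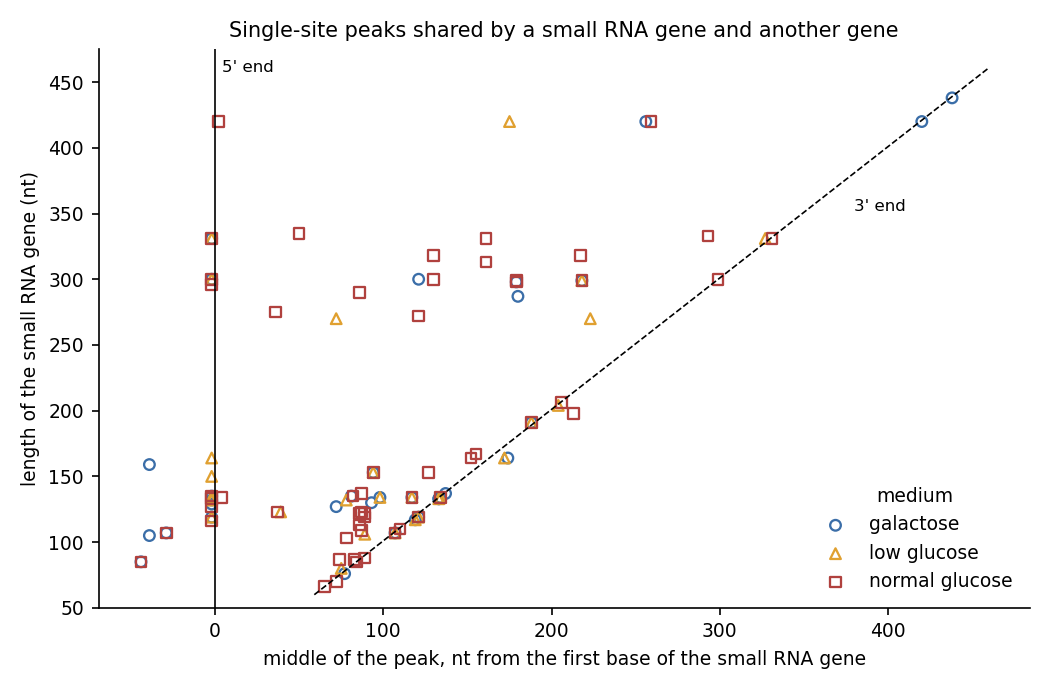
Distance in nt from the first base of the small RNA gene to the middle of each of the 115 single-site small RNA peaks (horizontal axis) against the length of that gene in nt (vertical axis). Each symbol is a peak, coloured by medium, the vertical line is the 5′ end and the dashed diagonal the last base. In 20 peaks the middle lay 2 nt before the first base and in 16 it lay 1 nt after the last base, with a place found in several lists counted in each.

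The 5S rRNA copies lay within other genes and rested on many places. Of the 43 peaks, 40 lay in introns of the partner gene, 20 on its strand and 22 on the opposite one. They fell at 30 loci, 4 of which were in all 3 lists. Mostly recurrent 30-mers, that is sequence found more than once in the genome, were seen in 4 of the 43.

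The sites within the 5S copies were alike from locus to locus. Where the outermost sites were taken as 50 nt inside each end of the peak, counted from the first base of the 5S gene as 0, the first site lay at -6 to 0 in 23 of 43 peaks and the last at 84 to 91 in 25. Both held in 16 peaks, 12 of them in normal glucose. In 8 peaks the last site lay at 110 or beyond, and 39 of 43 met at least 1 of these windows. In normal glucose the counts were 14, 20 and 2 of 27 for the first, middle and late windows, in low glucose 5, 3 and 4 of 10, and in galactose 4, 2 and 2 of 6.

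RNA5SP370 in an intron of NFYB (sites at -2 and 89) and RNA5SP202 in a lncRNA gene (sites at -3 and 87) had identical peaks in the 3 lists. The first site of RNA5SP150 in SOX2-OT was at -3 in each list and the last one differed, with sites at -3 and -2 in galactose, -3 and 120 in low and -3 and 86 in normal glucose. RNA5SP387 in FLVCR2 and RNA5SP429 in CDH1 had sites at -3 and 87 and at -6 and 84 in normal glucose, where low glucose had 89 for the first and -6 and -5 for the second. The 5S copy in EDA had peaks at -2 and 121 in galactose, at -2 in low and at 121 in normal glucose. Outside all 3 windows were the peaks of RNA5SP216 opposite to HINT3 (39 in low and 37 in normal glucose), RNA5SP191 in CHSY3 (-9 and 83) and RNA5SP221 in ADAT2 (78). These windows too were chosen after the positions had been seen.

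**Figure D3:**
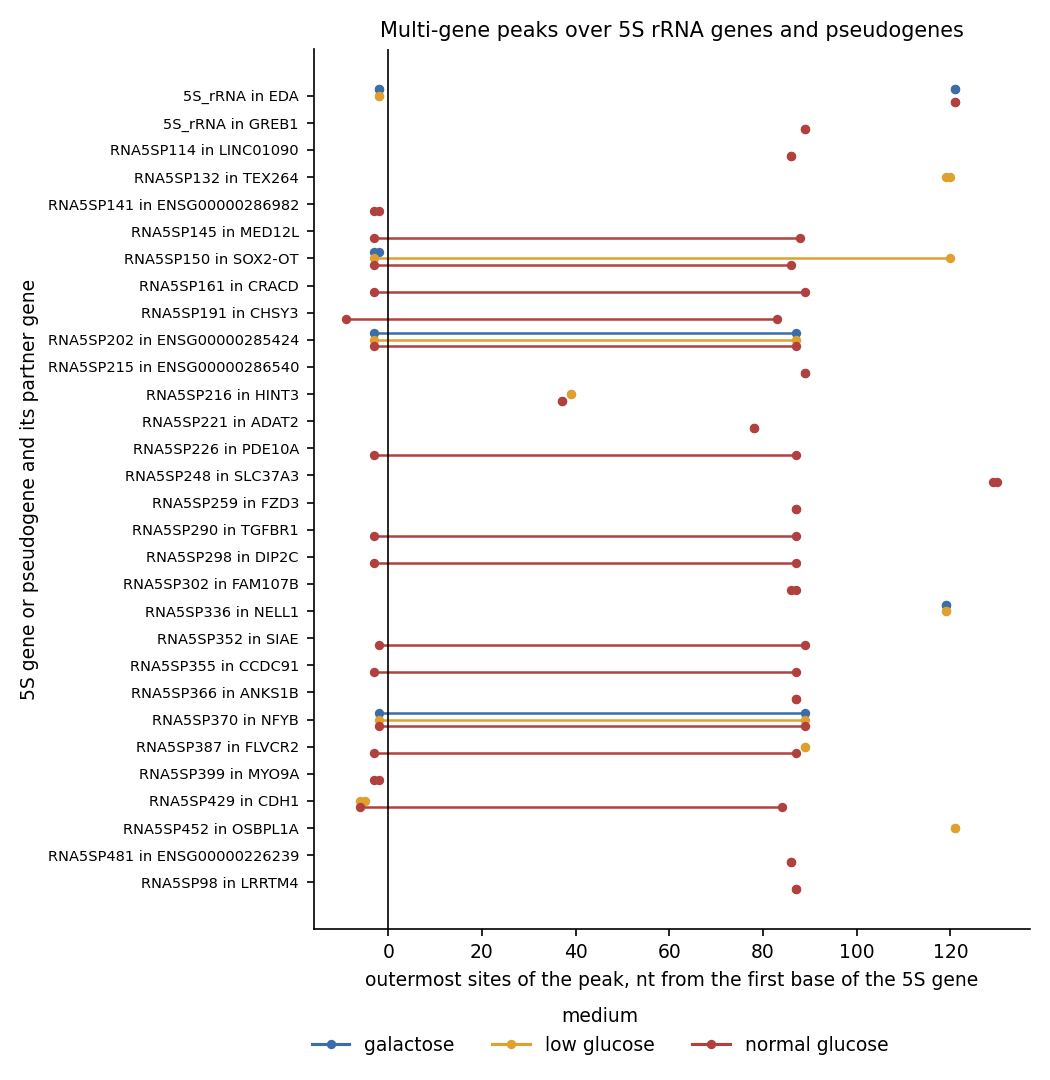
Outermost sites of the 43 peaks over 5S rRNA genes and pseudogenes, in nt from the first base of the 5S gene, with 1 row for each of the 30 loci and 1 colour for each medium, and with the sites of 1 peak joined by a line. Most sites lay between -6 and 0 or between 84 and 91, and 16 peaks held both.

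Pseudogenes with another gene were named in 1, 2 and 22 peaks. In 23 of the 25 the middle lay in an exon of the pseudogene and in an intron of the partner, which was on the opposite strand in 16 and on the same strand in 9. None of the 25 overlapped a peak of another list (0 of 25, exact 95% interval up to 13.7%). In normal glucose they included copies of highly expressed mRNAs of translation and glycolysis: RPL4P4 in MAP3K13 with 2 peaks, and GAPDHP61 in ZNF609, GAPDHP63 and ALDOAP2 in TEX36 with 1 each. GPX1P1 with LINC01203 was the pair in galactose, and TMSB4XP8 with CCSER1 and GTF2IP4 with SPDYE10 were those in low glucose. A 4-gene peak of normal glucose (chr1:19608289-19608389) held a pseudogene within MICOS10 and the readthrough gene MICOS10-NBL1.

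The sequence of the peaks bears on where reads from a parent mRNA can be placed. The RPL4P4 peaks had 74 of 74 and 48 of 72 recurrent 30-mers, whereas GAPDHP63 had 16 of 72, GAPDHP61 6 of 72 and ALDOAP2 0 of 72. Over the class, 8 of 25 peaks (32.0%) were mostly recurrent, against 40 of 224 small RNA peaks and 19 of 80 antisense peaks. The shares of recurrent peaks in multi-gene and single-gene peaks were 17.7% and 18.3% in galactose, 13.6% and 13.6% in low glucose, and 22.0% and 27.2% in normal glucose (adjusted p = 1.00, 1.00 and 0.714, Fisher's exact test).

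The base before the called site was read in multi-gene and single-gene peaks alike. RNase T1, which the study's methods name, cuts RNA after G. In single-site peaks with all genes on 1 strand, G stood before the middle in 31.6% of 38 in galactose, 25.0% of 32 in low and 58.9% of 56 in normal glucose. Single-gene peaks had 22.1%, 26.3% and 63.8%. Single-site pseudogene peaks of normal glucose had G on an annotated strand in 11 of 14. This count takes either strand where genes lay on both, so it is not on the scale of the shares above. By the same count, antisense peaks of normal glucose had 18 of 21 and small RNA peaks 31 of 55. Without single-site peaks that had a G before the middle, pseudogene peaks were 1 of 73 in galactose and 11 of 111 in normal glucose (odds ratio 0.126, adjusted p = 0.142, Fisher's exact test). The comparison of low with normal glucose still passed, with 0 of 107 against 11 of 111 (adjusted p = 0.0138, same exact test). The part of this base in the number of pseudogene peaks was not otherwise tested.

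Where genes lay on both strands, the base could be read on each. Of 98 such single-site peaks, 44 had G on exactly 1 strand, 15 on both and 39 on neither. For 20 small RNA peaks with the partner on the opposite strand, G stood on the strand of the small RNA alone in 8 and on the partner's strand alone in 0, on both in 5 and on neither in 7. For 12 pseudogene peaks of this kind, the counts were 5 for the pseudogene's strand, 2 for the partner's strand, 1 for both and 4 for neither. The 2 with G on the partner's strand alone were those of low glucose. The GAPDHP61 peak, printed above on the strand of the pseudogene, was one with G before the site. Where 1 strand alone had an exon at the middle, G stood on the exon's strand alone in 22 of 61 peaks. It stood on the other strand alone in 10, on both in 11 and on neither in 18. For exon's strand alone and other strand alone, galactose had 5 and 2, low glucose 1 and 3 and normal glucose 16 and 5.

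Antisense pairs without any of the former features had 16, 33 and 31 peaks. One gene lay inside the other in 49 of the 80, the 5′ ends overlapped in 18 (4, 11 and 3 by list) and the 3′ ends in 12 (1, 4 and 7). The middle lay in an exon of exactly 1 of the genes in 55 peaks (68.8%), in exons of 2 or more in 16 and in no exon in 9. By type of gene, the exons were of coding genes and no lncRNA in 29 peaks, of 1 or more lncRNAs and no coding gene in 30 and of both types in 12.

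VIM, which encodes the intermediate filament protein vimentin, and VIM-AS1 had 3 peaks in low glucose and none in the other lists. They lay next to each other at chr10:17229283-17229429 in the 5′UTR and at chr10:17229462-17229567 and chr10:17229593-17229710 in coding sequence of VIM, each within an exon of VIM-AS1. TMSB10, which encodes an actin-binding thymosin, lies inside an intron of TRABD2A on the opposite strand. This pair had 3 peaks in normal glucose alone (chr2:84906046-84906146, chr2:84906363-84906463 and chr2:84906473-84906573), all in exons of TMSB10, with G before the middle on the strand of TMSB10 in each.

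GAPDH itself was named in 1 multi-gene peak, in normal glucose (chr12:6538122-6538222), where its 3′UTR lies opposite to a gene without a symbol. Of its 72 30-mers, 48 recurred in the genome. MYC, another of the study's targets, had 1 in low glucose (chr8:127735556-127735656), within an intron of CASC11 on the other strand. Its middle was called coding sequence of MYC, a call that needs only a single transcript of the gene. The paper reports its MYC binding within the 5′UTR, and it names the 5′UTR of GAPDH as a target site as well. CEBPA, a transcription factor of myeloid cells, had 1 in low glucose in coding sequence. The study's targets PKM and TNF had none.

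MALAT1, a nuclear lncRNA, and its antisense partner TALAM1 had 1, 1 and 2 peaks, in exons of both. TUBA1B, an α-tubulin gene, and TUBA1B-AS1 had a peak in the 5′UTR in low glucose and one in coding sequence in normal glucose. RPL10 had 2 peaks with an antisense gene in low glucose and RPL32 had 2 in normal glucose. In galactose the antisense pairs found in no other list included PRELID1 with MXD3 and BCL2L11 with MIR4435-2HG. A pair of lncRNA genes of the ribosomal DNA repeats had 1, 2 and 6 peaks, and 9 of these 9 were recurrent sequence.

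Shared starts were the class of RPS18 and VPS52, genes of a ribosomal protein and of a vesicle tethering subunit whose 5′ ends lie 28 nt apart on opposite strands. Their peak was in all 3 lists (chr6:33272025-33272125 in galactose and normal glucose) with the middle on the first base of RPS18 and 28 nt outside VPS52; in low glucose it was 1 nt wider. Such closeness was uncommon, with 6 of the 27 shared-start peaks within 100 nt of a 5′ end and 4 more than 1000 nt from both. A place found in several lists was counted in each. Thus the RPS18 peak was counted among the close ones in all 3 lists. The peak of ERV3-1 and ZNF117 was counted among the distant ones in galactose and low glucose. SARAF with a gene on the opposite strand was also in all 3 lists, 223 nt from the nearest 5′ end. Further pairs were STARD7 with STARD7-AS1 in galactose, ENO3 with PFN1 in low glucose and PGLS with PGLS-DT in normal glucose. In the ENO3 pair the peak lay in coding sequence of PFN1, which encodes the actin-binding protein profilin, and in an intron of ENO3, a glycolytic enolase gene.

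Nuclear tRNA genes are not named by the deposited annotation and were not counted as genes here. Peaks over them were less frequent among multi-gene than single-gene peaks in galactose and normal glucose, while low glucose did not pass. They were 11 of 96 against 54 of 241 in galactose (odds ratio 0.448, adjusted p = 0.0329), 11 of 125 against 57 of 359 in low glucose (0.511, adjusted p = 0.0526) and 6 of 182 against 51 of 313 in normal glucose (0.175, adjusted p = 1.12e-05, Fisher's exact test over 3 lists, a comparison added after the positions had been seen). None of the 224 small RNA peaks lay over a tRNA gene, and without peaks over small RNA genes no list passed, with 11 of 42 against 54 of 223, 11 of 60 against 57 of 338 and 6 of 77 against 51 of 276 (adjusted p = 0.852, 0.852 and 0.0693, same exact test). Of the 28 multi-gene peaks over tRNA genes, 12 were antisense, 6 shared start, 6 same strand and 4 readthrough. FMC1 and LUC7L2, genes with 5′ ends 902 nt apart on 1 strand, were named in all 3 lists for an identical peak that holds the Arg tRNA gene TRR-CCT4-1 (last sequence above). SHF and a gene without a symbol were named for a His tRNA gene, again in all 3 lists.

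Readthrough pairs had 13, 9 and 12 peaks, of which 7 of 34 overlapped a peak of another list. FCGR2A, a receptor for the Fc part of IgG, and a readthrough gene had a peak in all 3 lists (chr1:161523794-161523970) over the Gly tRNA gene TRG-GCC2-1. PCBP2 had 1 peak in galactose and 2 in normal glucose, and H3C4 had 2 in galactose and 1 in low glucose. GPI, a glycolytic isomerase gene, had 2 in normal glucose alone, both in coding sequence. In normal glucose a 4-gene peak (chr19:49929296-49929396) named ATF5, IL4I1, NUP62 and a further gene, and lay in the 5′UTR of both ATF5 and NUP62. Among other pairs on the same strand, ALDOA, the aldolase of glycolysis, had 2 peaks in low and 3 in normal glucose in its coding sequence or 5′UTR, together with a longer coding gene without a symbol on the same strand.

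The middle of the peak lay in at least 2 genes in 323 of the 403 peaks (80.1%), in 1 gene in 75 and in none in 5. The share was 68.8% in galactose, 78.4% in low and 87.4% in normal glucose. Of the 80 peaks with a middle in fewer than 2 genes, 68 missed a small RNA gene that another stretch of the peak overlapped. An exon of exactly 1 gene lay at the middle in 213 peaks (52.9%), exons of 2 or more in 116 and no exon in 74. Over the pairs of a small RNA peak and a protein coding gene, the middle was in an intron of that gene in 99 pairs, in other exons in 28, in the 3′UTR in 14, in the 5′UTR in 10 and in coding sequence in 6.

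Multi-gene and single-gene peaks were met by a peak of another list at rates that did not pass the test. The shares were 65.6% (63 of 96) and 67.6% in galactose, 51.2% (64 of 125) and 158 of 359 in low glucose, and 31.9% (58 of 182) and 36.1% in normal glucose (adjusted p = 0.797, 0.529 and 0.567, Fisher's exact test). Between the classes the counts ranged widely. Small RNA peaks were met in 132 of 224 (58.9%, with 44 of 54, 44 of 65 and 44 of 105 by list) and shared-start peaks in 16 of 27, but antisense peaks in 24 of 80 and readthrough peaks in 20.6%. Some single-gene peaks lay over small RNA genes too. With and without them, single-gene peaks were met in 163 of 241 and 145 of 223 in galactose, 158 of 359 and 143 of 338 in low, and 113 of 313 and 95 of 276 in normal glucose. The rate of small RNA peaks was thus not shown to be particular to those shared with another gene. Without small RNA peaks, multi-gene peaks were met less often than single-gene peaks in galactose (19 of 42 against 145 of 223, adjusted p = 0.0352) and normal glucose (14 of 77 against 95 of 276, adjusted p = 0.0231, Fisher's exact test).

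**Figure D4:**
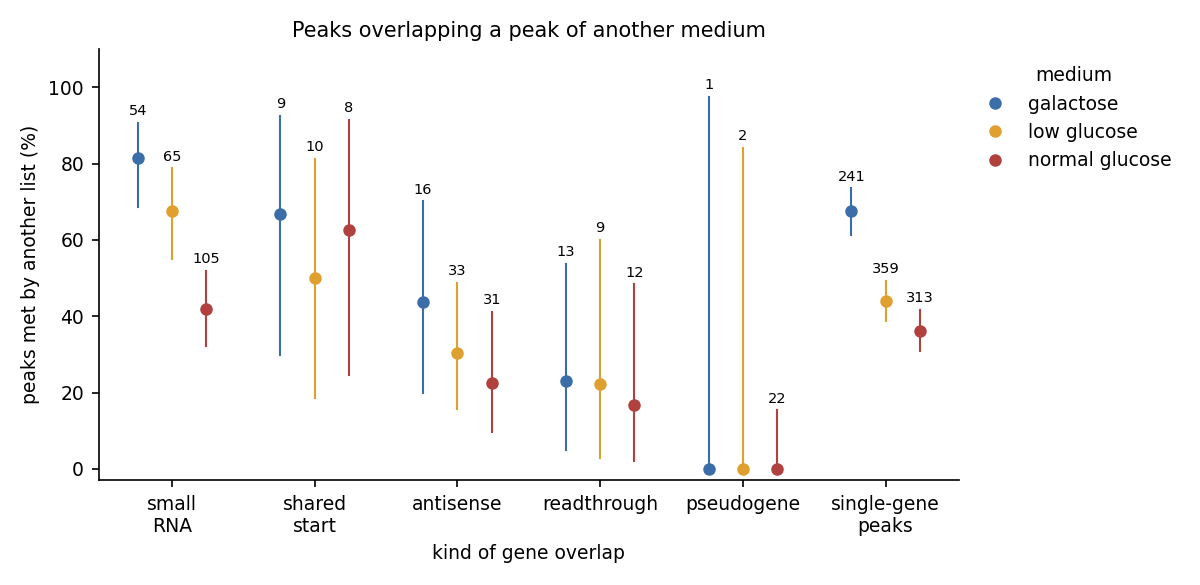
Percentage of the peaks of each class and list that overlapped a peak of another list by at least 1 nt (points, coloured by medium), with exact 95% binomial intervals (lines, counting error only) and the number of peaks above, beside single-gene peaks. Small RNA peaks stood at 81.5%, 67.7% and 41.9% in galactose, low and normal glucose, and pseudogene peaks at 0 in each, while other pairs on the same strand were not drawn.

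Merged over lists, the peaks lay in 293 regions with a multi-gene peak, of which 33 were in all 3 lists (11.3%), 42 in 2 and 218 in 1. Regions with single-gene peaks alone had 72 of 658 in all 3 (10.9%). Small RNA regions made up 24 of the 33 found in all 3 lists, but also 145 of the 293 regions. The share found in all 3 lists was 16.6% of small RNA regions and 23.5% of the 17 shared-start regions. By gene names there were 244 combinations, of which 34 were in all 3 lists, 40 in 2 and 170 in 1, with 25 found in galactose alone, 50 in low glucose alone and 95 in normal glucose alone. Pseudogene combinations numbered 23, each in a single list, whereas 23 of the 123 small RNA and 4 of the 16 shared-start combinations were in all 3.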

How the data were processed

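CLIP-seq of GAPDH in MOLM-13 cells gave 6 samples, 2 per medium. Per the study's methods, crosslinked RNA was trimmed with RNase T1 and sites were called with PureCLIP, nearby sites merged and solitary sites extended. The submitters' notes name cutadapt and STAR and the build hg38, with versions not given in the sources used here. The authors deposited 1 list per medium, both samples joined, with positions and gene names and no counts or scores.

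Positions were read as 1-based with both ends included. Distinct peaks with at least 2 gene identifiers were kept. Strand, type and exons came from GENCODE release 44, tRNA genes and their names from the RefSeq table of GRCh38.p14 and sequences from hg38. The place of a middle was taken over all transcripts of a gene. Coding sequence in any transcript went before 5′UTR, then 3′UTR, other exon and intron. Classes were set in the order small RNA, pseudogene, readthrough, shared start, antisense, same strand. Recurrent peaks had over 50% of their 30-mers at further places in the genome. Peaks with an overlap of at least 1 nt were called met. Outermost sites of wider peaks were taken 50 nt inside each end. Each small RNA peak got 1 partner, ribosomal protein, translation factor and non-coding snoRNA host genes first, then coding genes, then by name.

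Fisher's exact test was used for shares (two-sided, scipy 1.17.1, Python 3.11.15, samtools 1.23.1) adjusted by Benjamini-Hochberg over each set of comparisons, threshold 0.05, after the script was tested on simulated data. Alternatives changed the annotation, the order of classes, the unit or the peaks left out. Genes named were the combinations in all 3 lists (up to 8 per class), those with most peaks in a single list (up to 3 per list), peaks with at least 4 genes and targets of the study. ALDOA, CEBPA, TUBA1B, PCBP2, H3C4, GAPDHP61, GAPDHP63, ALDOAP2, the printed SNORA64 and SNORD94 peaks and single 5S loci lie outside this rule and were chosen after their values were seen. The members, lists and rules were chosen with earlier results of these data known. A few items are not reported here.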

Additional observations from a re-analysis of the deposited data

How the results depend on the processing

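No paired analysis was possible because both samples of each medium had been joined into 1 list, and for the same reason no sample could be left out. Of 138 alternative values, 105 kept their direction and side of the threshold. The rest are odds ratios of the first list over the second, or of multi-gene over single-gene peaks, unless said otherwise, and where no construction of the alternative shows the cause it was not tested. For the share of multi-gene peaks, counting genes that hold the middle gave 0.971 for galactose over low glucose (reversed). Not counting pseudogenes, rRNA pseudogenes included, gave 0.972 and 0.822 for galactose and low over normal glucose. Not counting small RNA genes, an alternative added after seeing the data, gave 0.737 and 0.726, and none of these 4 values passed. For the classes, putting strand and shared start first gave 1.23 and 1.16 for small RNA in galactose and low over normal glucose and 0.840 for antisense in low over normal (reversed), and left pseudogenes at 0 of 96 and 0 of 125 against 8 of 182 (odds ratio 0, exact test, adjusted p = 0.485 and 0.416). A shared start within 200 nt, gene combinations in place of peaks, peaks with mostly recurrent 30-mers left out and peaks with a G before the middle left out (added after seeing the data) turned antisense in galactose over normal glucose to 1.18, 1.41, 1.58 and 1.06. Without recurrent peaks, readthrough in low over normal glucose was 0.867 and same strand in galactose over normal 0.896 (reversed), and antisense in low over normal reached 2.83 (30 of 108 against 17 of 142, exact test, adjusted p = 0.0112). Without peaks with a G before the middle, pseudogenes in galactose over normal glucose were 0.126 (exact test, adjusted p = 0.142), and galactose over low glucose (1 of 73 against 0 of 107) had no finite ratio. For peaks met by another list, galactose turned to 1.01 with the middle inside the other peak, 1.01 with at least 50% of the peak covered and 1.06 without tRNA peaks, and normal glucose to 1.14 without tRNA peaks. Without small RNA peaks the values were 0.444 in galactose, 0.682 in low glucose (reversed) and 0.423 in normal glucose, the first and the last now passing. For recurrent sequence, requiring all 30-mers gave 1.11 in low and 1.16 in normal glucose, and leaving out small RNA peaks gave 1.08 in low glucose (reversed, none passing). For tRNA genes, leaving out small RNA peaks (added after seeing the data) gave 1.11 in galactose and 1.11 in low glucose (reversed) and 0.373 in normal glucose (no longer passing). By the middle of the peak, genes listed through multi-gene peaks alone moved to 36.8% in galactose and 37.4% in low glucose. The lists give no strand, depth or spread between samples, a place absent from a list may lie under the calling threshold, and RNA of the overlapping genes cannot be told apart by position.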
